A study of Mus musculus with 35 samples.

Results

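Pessimistic mice were compared with mice that carried no bias class, in the posterior portion of the amygdala and under enriched housing. The comparison took every posterior library of an enriched female mouse, 10 of the 35 libraries in the series. Of these, 4 were labelled pessimist (2 C57BL/6J and 2 B6D2F1N) and 6 had no bias class in the labels (2 C57BL/6J and 4 B6D2F1N). C57BL/6J is an inbred strain, and B6D2F1N is a hybrid of C57BL/6 and DBA/2 stock. All 10 mice were trained from postnatal day 70, were kept on restricted food, and had access to a playground for 1 h per day from postnatal day 77. Each library came from cells of the basolateral amygdala that were cut out by laser and is 1 mouse, so the spread between libraries includes that between animals and that between captures. Under enriched housing no mouse was labelled optimist. The study gave the name pessimist to mice with the lowest optimism scores in a judgement test, in which a mouse responds to an ambiguous cue as to the cue of a larger reward or as to that of a smaller reward, where a wrong touch was mildly punished. The scores were not used here, and the portions are called posterior and anterior as in the labels. The positions relative to bregma that the paper prints would place its posterior portion in front of its anterior one. The names therefore may not give the anatomical order. The remaining mice were described by their lack of a class, since the labels do not call them neutral.

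The basolateral amygdala is formed mostly of glutamatergic projection neurons, which are held in check by local GABAergic interneurons, and it links cues to reward or threat. Peptides, monoamines and stress hormones tune this balance: the corticotropin-releasing hormone and opioid systems, serotonin receptors and the glucocorticoid receptor are known for their part in fear and anxiety. The genes of these systems were therefore followed, together with ion channel receptors, synaptic genes, activity-dependent genes and markers of the cells that a capture can hold.

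The 4 pessimist libraries held 18230504 to 23769916 counts on genes and the 6 libraries with no bias class held 16938534 to 23176841. Levels are given as CPM, the counts of a gene divided by the scaled size of its library. Xist, the RNA of the inactive X chromosome, lay between 92.9 and 196 CPM in all 10, and 4 Y-linked genes had 2 counts in total, as the female sex in the study's methods requires. Slc17a7, the vesicular glutamate transporter of cortical-type projection neurons, was present at 78.2 to 560 CPM. No pair of libraries held the same counts. Summed choroid plexus markers were far above the rest in 2 libraries, at 14880.0 CPM in B6D2F1N pessimist 1 and 15316 CPM in B6D2F1N unclassified mouse 1, against 127 to 1890.5 CPM in the other 8. Log2 fold changes are pessimist over no bias class with strain held constant, and the error given with them is the standard error (SE).

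No gene passed the threshold. Of 25640 genes tested by edgeR's quasi-likelihood test, 0 had a Benjamini-Hochberg adjusted p of at most 0.05 (0.0% of genes called). The smallest adjusted p was 0.945. At an unadjusted p under 0.05 there were 1204 genes (4.70%), 599 higher (2.34%) and 605 lower (2.36%) in pessimists, which is about the share that the threshold alone would let through. DESeq2's likelihood ratio test also called 0 genes, with 1264 at an unadjusted p under 0.05 and a smallest adjusted p of 0.11. In 147 genes all 4 pessimists lay above all 6 mice with no bias class (0.573%), and in 143 all 4 lay below (0.558%). The intervals, which are not adjusted for the number of genes tested, were narrow mostly in well expressed genes. A difference of about 1 log2 unit in a single such gene could still miss the threshold. Slc5a3, for example, was at -1.03 ± 0.24 with an adjusted p of 0.945 by edgeR. Among the 10168 genes with a mean of at least 10 CPM the median SE was 0.25, and for 8051 of them the 95% interval lay within 1 log2 unit of 0. Over all 25640 genes the median SE was 0.59 and 8476 intervals were that narrow.

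**Figure D1:**
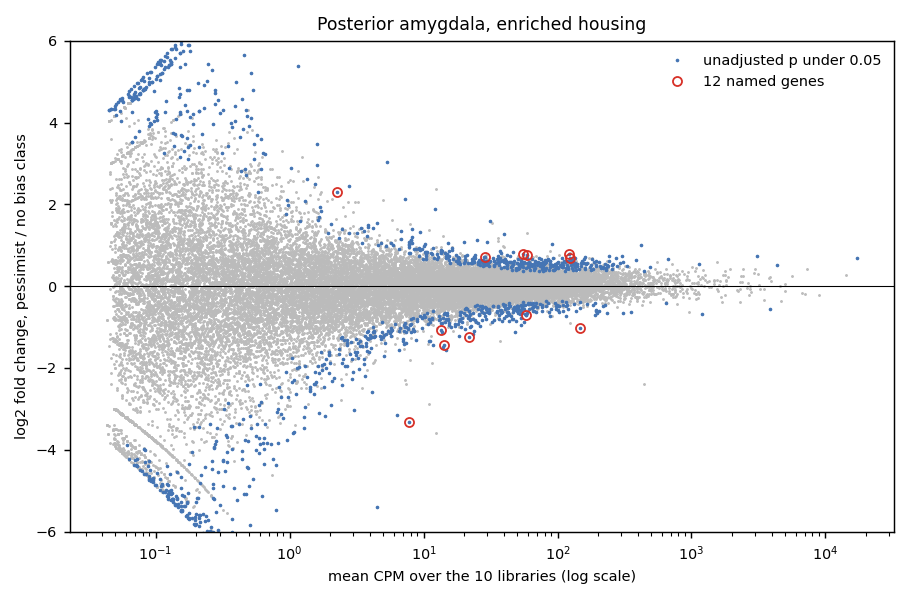
Log2 fold change of pessimist mice over mice with no bias class (vertical axis) against mean CPM over the 10 posterior libraries (horizontal axis, log scale) for each gene tested, with 63 genes beyond 6 log2 units outside the frame. The 1204 genes at an unadjusted p under 0.05 are blue and the 12 genes named by rule are circled; other genes lie as far from 0 with larger p, and none passed the adjusted threshold.

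Since no gene passed, the 6 genes with the smallest p in each direction and a mean of at least 1 CPM are given as a description. Of those lower in pessimists, Alms1 had the smallest p. Alms1 (chromosome 6, 85587531 to 85702753, GRCm38) encodes a large protein of the centrosome and the base of cilia. It measured 5.48 and 5.07 CPM in the C57BL/6J pessimists and 10.7 and 6.48 CPM in the B6D2F1N pessimists. The mice with no bias class ranged from 12.8 to 24.6 CPM, with a median of 20.2 CPM. Models on the same strand, Gm42600 and Gm43588, overlap it. The classes did not overlap, and the log2 fold change was -1.45 ± 0.31 (95% interval -2.11 to -0.79, unadjusted p = 0.00033 and adjusted p = 0.945 by edgeR, adjusted p = 0.11 by DESeq2).

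Slc5a3, the sodium-coupled transporter that brings the osmolyte myo-inositol into cells, showed the same order of groups at a higher level. It was at 57.7 and 63.9 CPM in the C57BL/6J pessimists, and at 107 and 132 CPM in the B6D2F1N pessimists. In the mice with no bias class it ran from 140 to 252 CPM with a median of 179 CPM. The log2 fold change was -1.03 ± 0.24. Slc5a3 overlaps Mrps6 on the same strand, and reads in the shared part cannot be told apart. Gfm2, a mitochondrial factor that releases ribosomes after translation, had pessimist values close to each other. Its 4 pessimist values were 41.0, 38.5, 45.8 and 41.6 CPM, all below the 58.6 to 79.2 CPM (median 69.8) of the other class. The log2 fold change of Gfm2 was -0.71 ± 0.17. Pigm, a mannosyltransferase that builds the glycolipid anchor of surface proteins, was at 9.27, 7.89, 8.33 and 7.59 CPM in pessimists and at 12.1 to 27.3 CPM (median 15.5) in the mice with no bias class. Its log2 fold change was -1.07 ± 0.27. Unadjusted p-values by edgeR were 0.00062 for Slc5a3, 0.001 for Gfm2 and 0.0014 for Pigm, and each adjusted p was 0.945.

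The other 2 lower genes are models of the type TEC, a GENCODE label for transcripts that still await experimental proof. Gm44676 (chromosome 7, 91608956 to 91612010) lies on the plus strand inside an intron of Dlg2, which encodes a postsynaptic scaffold protein. It was at 6.65, 10.8, 15.2 and 15.4 CPM in pessimists and at 20.9 to 43.2 CPM (median 27.6) in the mice with no bias class, a log2 fold change of -1.24 ± 0.30. Its host Dlg2 had a log2 fold change of -0.41 ± 0.20. Gm37925 (chromosome 1, 84665189 to 84669443) lies on the minus strand inside an intron of Dner, a transmembrane ligand of Notch. It was at 1.40, 0.0522, 2.87 and 0 CPM in pessimists and at 6.57 to 21.0 CPM (median 11.9) in the mice with no bias class, a log2 fold change of -3.32 ± 0.86. Its host Dner differed by -0.04 ± 0.26. For both models the 2 classes did not overlap while the host gene itself showed a smaller difference.

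Among the genes higher in pessimists, Rundc3a, a neuronal protein with a RUN domain, had the smallest p. It was at 75 and 90.8 CPM in the C57BL/6J pessimists, at 84.5 and 59.3 CPM in the B6D2F1N pessimists, and at 34.5 to 58.2 CPM (median 45.3) in the mice with no bias class. The log2 fold change was 0.75 ± 0.21 (unadjusted p = 0.0027 and adjusted p = 0.945, edgeR). Fam213b, a prostamide and prostaglandin F synthase, was at 141, 224, 164 and 125 CPM in pessimists. The mice with no bias class were at 69.7 to 119 CPM (median 95.01), all below, and the log2 fold change was 0.78 ± 0.22. B4galt2, a galactosyltransferase that extends sugar chains, was at 36.3, 43.7, 30.6 and 40.1 CPM in pessimists against 18.2 to 27.7 CPM (median 22.5), a log2 fold change of 0.70 ± 0.21. Reads from B4galt2 cannot be fully told apart from the overlapping Ccdc24.

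Rpsa and Rps15 are proteins of the small ribosomal subunit. Rpsa was at 54.1, 113, 78.5 and 53.3 CPM in pessimists and at 32.2 to 50.4 CPM (median 42.2) in the mice with no bias class, a log2 fold change of 0.79 ± 0.23. Rps15 was at 107, 190, 167 and 164 CPM against 72.3 to 127 CPM (median 101), so the first C57BL/6J pessimist fell inside the other class, and the log2 fold change was 0.68 ± 0.20. Both share sequence with processed copies: 47.8% of 72-base windows of Rpsa transcripts and 19.2% of those of Rps15 recur in other genes. The last of the 6, Ftl1-ps1, is a copy of the ferritin light chain gene, and 70.3% of its windows recur elsewhere. It was at 6.98, 5.43, 3.94 and 0.883 CPM in pessimists and at 0.204 to 3.49 CPM in the other class, a log2 fold change of 2.30 ± 0.66. Its values overlapped, and its assignment to this copy is uncertain.

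**Figure D2:**
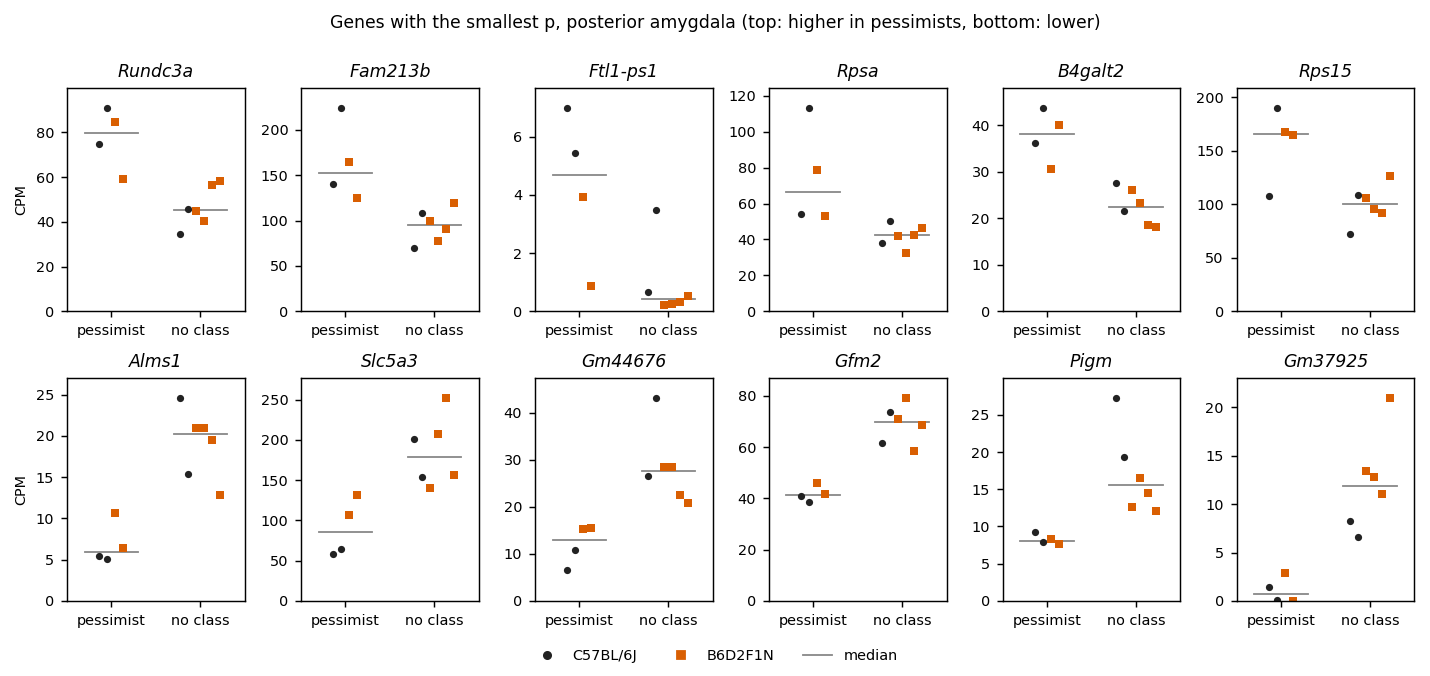
CPM of the 12 genes with the smallest p (vertical axes start at 0) in each pessimist mouse and each mouse with no bias class, with circles for C57BL/6J, squares for B6D2F1N and a line at the class median. The classes do not overlap in 10 of the 12 genes, Ftl1-ps1 and Rps15 being the exceptions. Among all 25640 genes they do not overlap in 290 (1.13%). The 12 were chosen by p on these same values, which favours a lack of overlap, and no gene passed the adjusted threshold.

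Reads on no gene were lower, and counts on mitochondrial genes higher, in most pessimists, while the ranges of the classes overlapped. Reads that fell on no gene made up 13.7% and 14.2% in the C57BL/6J pessimists and 22.8% and 17.6% in the B6D2F1N pessimists. In the mice with no bias class the share was 19.7% to 26.4%, with a median of 22.5%. Within C57BL/6J both pessimists were below both other mice (19.7% and 22.6%). Within B6D2F1N the first pessimist lay among the other 4 (22.2% to 26.4%) and the second lay below them. Counts on mitochondrial genes made up 4.77%, 8.10%, 7.14% and 6.16% in the pessimists and 3.76% to 5.53% in the mice with no bias class, so that 3 of the 4 pessimists were above the whole of the other class. Reads that aligned to more than 1 place, which were not counted on genes, made up 8.15%, 10.9%, 8.70% and 8.83% in the pessimists. In the mice with no bias class they made up 7.37% to 8.26%, below every pessimist except C57BL/6J pessimist 1. In the anterior libraries, which only part of these mice had, reads on no gene made up 17.2%, 17.6% and 17.6% in the pessimists. The range there was 14.9% to 22.8% in the mice with no bias class. The part of these shares in the posterior gene differences was not tested, apart from a fit with the share of reads on no gene as a term, which also called 0 genes.

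A pair of annotated kinds of transcript model, TEC and sense intronic, were read beside the share of reads on no gene. These classes were chosen after values had been seen, and no test was made of them. The 879 TEC models with a mean of at least 1 CPM summed to 2687, 2802, 4617 and 3523 CPM in the pessimists and to 3539.6 to 5892 CPM (median 4581) in the mice with no bias class. Their median log2 fold change was -0.37, beside 0.02 for all 16472 genes at that level. At an unadjusted p under 0.05 there were 77 lower and 0 higher TEC models, where 747 of all 16472 genes (4.53%) reached it, 375 lower (2.28%) and 372 higher (2.26%). Of the 879 models, 627 (71.3%) lay wholly inside an intron of a coding gene on the same strand, with a median of -0.40. The 382 hosts that were tested had a median of -0.03. The 83 sense intronic RNAs, which are annotated as lying in introns, had a median of -0.49. In the anterior portion the median was -0.09 for TEC models and -0.04 for sense intronic RNAs. The TEC median was -0.68 within C57BL/6J and -0.19 within B6D2F1N. It shrank to -0.22 without C57BL/6J unclassified mouse 2 and -0.20 in the mice with both portions, grew to -0.62 without B6D2F1N pessimist 1, and turned to 0.12 with the share of reads on no gene as a term.

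**Figure D3:**
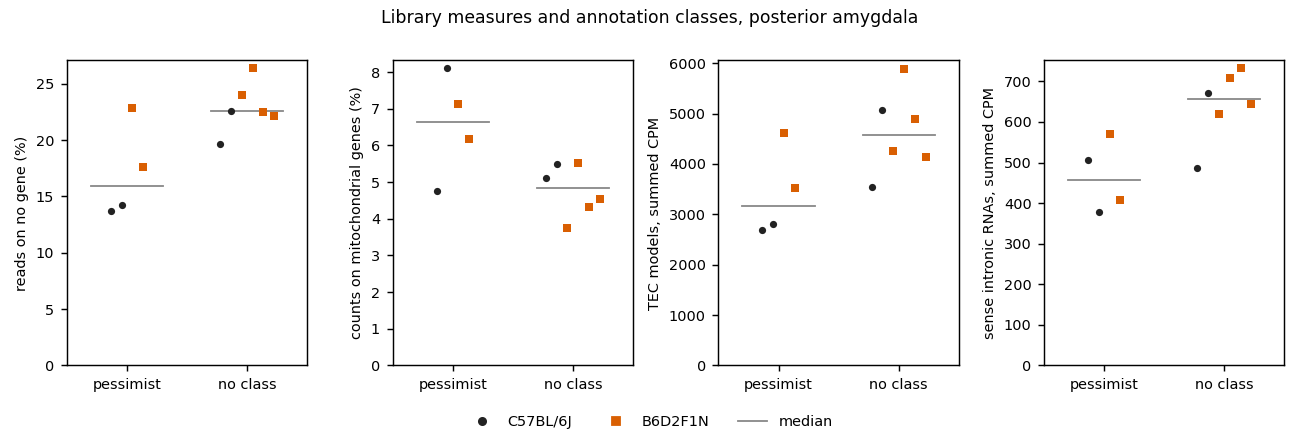
Share of reads on no gene (%), share of counts on mitochondrial genes (%), summed CPM of 879 TEC models and summed CPM of 83 sense intronic RNAs in each mouse (vertical axes start at 0; circles C57BL/6J, squares B6D2F1N, line at the class median). Reads on no gene and both kinds of model were lower in the C57BL/6J pessimists and in the second B6D2F1N pessimist, except that the first C57BL/6J pessimist had slightly more sense intronic RNA than C57BL/6J unclassified mouse 1, while the first B6D2F1N pessimist lay closer to the mice with no bias class.

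Genes of known systems were then read in 20 lists of 317 genes, of which 310 were tested. None passed the threshold, 17 (5.48%) had an unadjusted p under 0.05, and the classes did not overlap in 3 (Klf9, Syn3 and Psmb9), where 1.13% of all genes did not overlap. The median log2 fold change of the 310 genes was 0.06. Of the 212 genes with a mean of at least 10 CPM, 133 had a 95% interval within 1 log2 unit of 0. The lists and the members named were chosen with earlier results of these data known, and adjusted p-values by edgeR were at least 0.945 for each member named.

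Among monoamine receptors, the serotonin receptor list of 14 genes had a median of -0.02 with 7 genes on each side. Htr2a, the excitatory 2A receptor at which psychedelic drugs act, was the member with the smallest p. It was at 1.40 and 1.62 CPM in the C57BL/6J pessimists, 3.81 and 4.06 CPM in the B6D2F1N pessimists, and 3.48 to 10.8 CPM (median 6.18) in the mice with no bias class. Its log2 fold change was -1.25 ± 0.48 (95% interval -2.28 to -0.23, unadjusted p = 0.02). The C57BL/6J pessimists were below every other mouse, and the B6D2F1N pessimists overlapped the other class. Htr1f, an inhibitory receptor, was at -0.63 ± 0.59. In the 13 dopamine and noradrenaline receptors the median was -0.20. Adra1a, the alpha-1A adrenergic receptor, was at -0.94 ± 0.46, with 11.2, 5.80, 10.9 and 2.12 CPM in pessimists and 9.86 to 25.0 CPM in the mice with no bias class. Drd3, a dopamine receptor of the ventral striatum, was at 0 in 3 pessimists and 0.104 CPM in the other, and ranged from 0 to 3.02 CPM in the mice with no bias class, so its unadjusted p of 0.023 rests on few counts.

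Of 15 GABA-A receptor subunits, which form the chloride channel through which fast inhibition works, 11 were lower and 4 higher in pessimists, with a median of -0.21. Gabrb2, the beta-2 subunit of the most common receptor type, was at 99.3, 61.1, 77.8 and 75.1 CPM in pessimists. The mice with no bias class ran from 63.9 to 166 CPM with a median of 120.4 CPM, and the log2 fold change was -0.64 ± 0.25 (unadjusted p = 0.023). Gabrg1, the gamma-1 subunit, was at 84.8, 87.6, 155 and 222 CPM against 120.1 to 338 CPM (median 216), a log2 fold change of -0.72 ± 0.32 (unadjusted p = 0.041). For both subunits the classes overlapped. Gabrq was at -0.99 ± 0.48, and Gabra5, the subunit of extrasynaptic receptors, lay on the other side at 0.54 ± 0.30. Leaving out each mouse in turn moved the median of the list between -0.55 and -0.01.

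Among 24 glutamate receptor genes, 17 were lower and 7 higher, with a median of -0.14, and the 2 at an unadjusted p under 0.05 were both higher in pessimists. Grm2, a presynaptic metabotropic receptor that damps glutamate release, was at 26.4, 18.3, 13.6 and 29.4 CPM in pessimists and 5.53 to 21.4 CPM (median 8.17) in the mice with no bias class. Its log2 fold change was 1.06 ± 0.39 (unadjusted p = 0.015), and the values overlapped. A model on the opposite strand, Gm28111, overlaps Grm2. Grid1, the delta-1 receptor that organizes synapses, was at 0.38 ± 0.18. The AMPA receptor subunit Gria4 was at -0.38 ± 0.21. Of 14 acetylcholine receptors (median -0.01), the muscarinic receptor Chrm5 had the smallest p. It was at 0 to 1.17 CPM in pessimists and 0.0496 to 4.27 CPM in the other class, and Chrna7, the alpha-7 nicotinic subunit, was at -0.71 ± 0.44.

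For peptide signalling, 16 neuropeptide genes had a median of 0.35 (10 higher, 6 lower) and 24 receptors a median of -0.11 (10 higher, 14 lower). Nmbr, the receptor of neuromedin B, was at 0.702, 1.46, 15.1 and 9.48 CPM in pessimists and 2.15 to 46.1 CPM (median 13.6) in the mice with no bias class. Its log2 fold change was -1.57 ± 0.61 (unadjusted p = 0.022), and the C57BL/6J pessimists were below every other mouse. Mc4r, the melanocortin receptor of feeding and stress circuits, was at 15.5, 7.11, 10.4 and 4.95 CPM against 9.61 to 27.4 CPM (median 17.0), a log2 fold change of -0.90 ± 0.38 (unadjusted p = 0.034). Sstr2, a somatostatin receptor, was at 0.72 ± 0.35, with the highest value, 159 CPM, in B6D2F1N pessimist 2. Without that mouse it was at -0.07. The vasopressin gene Avp was listed at 0 in all 4 pessimists and in 2 mice with no bias class, and its receptor Avpr1a did not exceed 3.96 CPM in any mouse. The thyrotropin-releasing hormone gene Trh was at -1.54 ± 0.76.

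In the opioid system (8 genes, median 0.19) no member had an unadjusted p under 0.05. Pdyn, the dynorphin precursor, was at 24.3 to 34.1 CPM in the 4 pessimists and at 4.34 to 113 CPM in the mice with no bias class. Penk, the enkephalin precursor, was at 233 to 1105 CPM and at 90.2 to 2857 CPM, so a difference of this size could not be told from the spread between mice (log2 fold change -0.64 ± 0.69). The mu receptor Oprm1 was at 0.79 ± 0.71 and the delta receptor Oprd1 at 1.42 ± 0.98. For the 5 tested genes of the corticotropin-releasing hormone system the median was -0.26. Its binding protein Crhbp was at 0.34 ± 0.29, and Ucn3, the urocortin of medial amygdala and hypothalamus, at -1.87 ± 1.199 with 0 to 12.1 CPM in pessimists and 0 to 43.9 CPM in the other class.

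Of 20 glucocorticoid receptor and target genes, 16 were higher in pessimists, with a median of 0.27. Klf9, a transcription factor that glucocorticoids induce, was at 68.4, 102, 68.8 and 59.4 CPM in pessimists and at 39.6 to 58.0 CPM (median 53.3) in the mice with no bias class. The classes did not overlap, and the log2 fold change was 0.46 ± 0.19 (unadjusted p = 0.026). Mt1, a metallothionein, was at 178, 432, 295 and 219 CPM against 150.3 to 222 CPM (median 194), a log2 fold change of 0.53 ± 0.24 (unadjusted p = 0.045). Nfkbia was at 0.36 ± 0.20 and the clock gene Per1 at 0.55 ± 0.31. In the anterior portion Klf9 stood at 0.48 ± 0.29 and Mt1 at 0.60 ± 0.32, and the list's median there was 0.50. Those anterior libraries all come from mice of the posterior comparison.

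Interferon-response and MHC class I genes showed the largest median of the 20 lists, 0.50, with 18 of 19 members higher in pessimists. Ifit3, an antiviral protein, was at 24.4, 18.8, 22.8 and 12.1 CPM in pessimists and 7.30 to 19.7 CPM (median 10.7) in the mice with no bias class, a log2 fold change of 0.75 ± 0.33 (unadjusted p = 0.039). Its copy Ifit3b shares 44.7% of its windows. Psmb9, a subunit of the immunoproteasome, was at 2.95, 2.77, 3.18 and 2.47 CPM and at 0.248 to 2.26 CPM, without overlap, at 1.35 ± 0.65. Bst2 was at 0.86 ± 0.45 and B2m, the light chain of class I molecules, at 0.32 ± 0.19. The single member at an unadjusted p under 0.05 is 5.26% of 19, near the 4.70% of all genes, and in the anterior portion the list's median was -0.10.

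Activity-dependent genes and genes of vesicle release had medians below that of the interferon list. In 21 immediate early genes (15 higher, median 0.23), Nptx2, a secreted pentraxin that gathers AMPA receptors, was at 12.4, 12.2, 4.48 and 15.4 CPM in pessimists and 1.94 to 9.49 CPM (median 5.71) in the mice with no bias class, a log2 fold change of 0.97 ± 0.44 (unadjusted p = 0.043). Fosb was at 1.17 ± 0.65, Egr4 at 2.45 ± 1.34 and Nr4a3 at 0.62 ± 0.37. Among 21 genes of vesicle release (median 0.12), 2 synapsins lay on opposite sides. Syn3 was at 12.2, 5.96, 6.86 and 6.71 CPM in pessimists and at 13.5 to 24.1 CPM (median 15.3) in the mice with no bias class, with no overlap, a log2 fold change of -1.13 ± 0.33 (unadjusted p = 0.0038). Syn2 was at 337, 198, 218 and 258 CPM against 116 to 208 CPM (median 193), a log2 fold change of 0.50 ± 0.22 (unadjusted p = 0.039). Each synapsin gene hosts a TIMP gene on its opposite strand, and the strand setting of the counting is not given in the sources used here.

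The remaining lists follow. Postsynaptic scaffold genes (16 genes) had a median of 0.07, with Camk2b at 0.56 ± 0.32 and Dlg4 at 0.54 ± 0.43. Markers of basolateral projection neuron classes (12 genes) had a median of 0.01, with Otof at -0.73 ± 0.34. Clock genes (16 genes) had a median of 0.07, with Per3 at -0.42 ± 0.23 and Ciart at 0.36 ± 0.21. Heat shock and unfolded protein genes (24 genes) had a median of -0.05, with Hsp90aa1 at 0.33 ± 0.20 and Atf4 at 0.48 ± 0.28. The endocannabinoid list (7 genes, median 0.03) held Mgll at 0.55 ± 0.32, and neurotrophins and their receptors (8 genes, median -0.19) held Bdnf at 0.32 ± 0.29 and Ntrk2 at -0.27 ± 0.23. The 16 tested cytokine genes had a median of 0.09 and a median SE of 1.08, so that they were measured with little precision. The 13 genes that mitochondria encode had a median of 0.41, with mt-Nd1 at 0.51 ± 0.24 (unadjusted p = 0.048) and mt-Co1 at 0.43 ± 0.23.

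**Figure D4:**
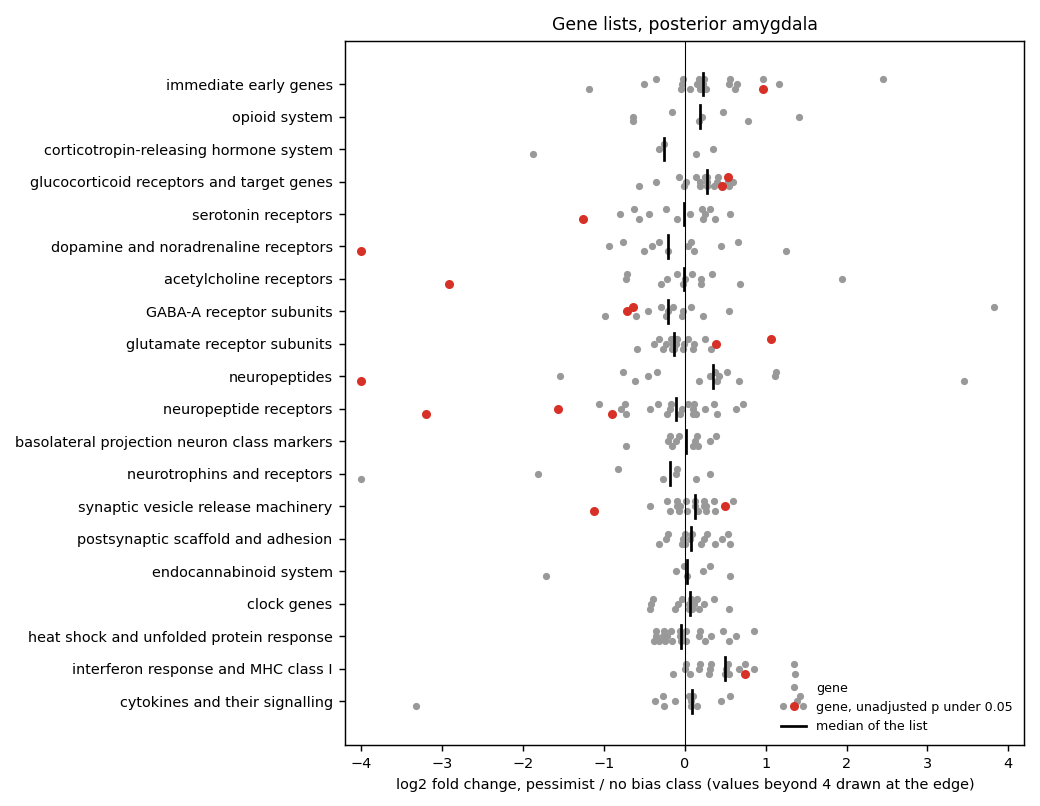
Log2 fold change of pessimist mice over mice with no bias class for each tested gene of 20 lists, with red for an unadjusted p under 0.05 and a black bar at the list's median. Medians lie between -0.26 (corticotropin-releasing hormone system) and 0.50 (interferon response and MHC class I), and red genes occur on both sides.

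Genes that the study itself had linked to bias were read separately. For the posterior amygdala the study chose them by comparing optimists with pessimists. The pessimist libraries used here were part of that contrast, so the genes are not independent evidence. The libraries with no bias class were not part of it, and no optimist is compared here, so the contrasts differ. Most of these genes were reported as higher in optimists than in pessimists. Of the 19 posterior genes tested here, none passed the threshold or had an unadjusted p under 0.05. Among them 12 were higher in pessimists than in mice with no bias class, and the median was 0.20. Jrk was at 1.43 ± 0.82, Dusp10 at -0.78 ± 0.46 and Hacl1 at 0.51 ± 0.31. The study linked 13 genes to the optimism score in the anterior amygdala, with negative correlations. These 13 had a posterior median of 0.06, with 7 higher and 6 lower. Their median SE was 1.55 and 3 of them had a mean of at least 10 CPM, so they were measured with little precision. In the anterior portion their median was 2.18. The study chose them on anterior libraries that include those of these mice, so that value is not independent evidence.

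Cell markers were compared to see what the captures held, where fewer cells of a type and less RNA per cell cannot be told apart. No marker passed the threshold in any of 16 lists. Summed levels overlapped between the classes for every list. Pdgfra, the receptor that marks oligodendrocyte precursors, was at 59.0, 37.4, 68.2 and 67.6 CPM in pessimists and 78.6 to 114 CPM (median 85.7) in the mice with no bias class, a log2 fold change of -0.61 ± 0.20 (unadjusted p = 0.0092), and did not overlap. The 3 other precursor markers were at 0.47 ± 0.32 (Cspg4), -0.25 ± 0.35 (Tnr) and -0.05 ± 0.25 (Gpr17), and the median of the 4 was -0.15. Of 9 astrocyte markers, Gja1, the main gap junction protein, was at -0.68 ± 0.27 (unadjusted p = 0.026) while S100b was at 0.70 ± 0.32 (unadjusted p = 0.045). Their list summed to 3419 to 4443 CPM in pessimists and 3279.6 to 6220 CPM in the other class. Tbr1, a transcription factor of glutamatergic neurons, was at 16.5, 15.9, 6.41 and 8.07 CPM against 1.94 to 13.0 CPM (median 3.97), a log2 fold change of 1.02 ± 0.38 (unadjusted p = 0.019). Neurod6 was at 1.29 ± 0.73. The sum of 7 excitatory neuron markers was 6004, 2376, 1880 and 1591 CPM in pessimists and 1175 to 2693 CPM in the other class. Only C57BL/6J pessimist 1 lay above that range. Striatal projection neuron markers, which a capture that reaches beyond the basolateral nucleus would carry, summed to 335 to 1309 CPM in pessimists and to 213 to 3046 CPM in the mice with no bias class, and oligodendrocyte markers to 7599 to 31129 CPM and 12086 to 19876 CPM.

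Whether the class difference depended on strain was tested with an interaction term. No gene passed (0 of 25640, 0.0%), and 1181 genes (4.61%) had an unadjusted p under 0.05. DESeq2's likelihood ratio test called 2 genes. All 12 genes named above kept their sign within each strain. They were chosen for their small p in these same libraries, so this follows largely from the choice. In Alms1 the log2 fold change was -1.92 in C57BL/6J and -1.11 in B6D2F1N, and in Slc5a3 it was -1.55 and -0.66. For Gm44676 it was -2.003 and -0.71, with an unadjusted interaction p of 0.023. Each strain holds 2 pessimists, so a difference between strains of this size could not be told from the spread between mice.

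The anterior portion of 7 of these mice, 3 pessimists and 4 with no bias class, was compared in the same way. None of 23459 genes passed (0.0%), and 592 (2.52%) had an unadjusted p under 0.05, of which 430 were higher (1.83%) and 162 lower (0.691%) in pessimists. In 943 genes the classes did not overlap (4.02%), with 535 higher (2.28%) and 408 lower (1.74%). DESeq2 called 2 genes there, both higher. Most of the genes with the smallest p in the posterior portion lay nearer 0 here. Genes picked as extremes in some libraries tend to lie nearer 0 in others, so this says little about the portion. In the anterior portion Alms1 was at -0.21 ± 0.58, Slc5a3 at -0.38 ± 0.41, Gfm2 at 0.00 ± 0.25, Pigm at -0.28 ± 0.46, Rundc3a at -0.17 ± 0.27 and Fam213b at 0.16 ± 0.28. With 7 libraries the SE was larger for each of these 6 genes. Of the other genes named by the same rule, Gm44676 was at 0.75 ± 0.55, Gm37925 at 0.05 ± 0.92 and B4galt2 at -0.17 ± 0.31. Rps15 was at -0.01 ± 0.30, Rpsa at 0.12 ± 0.36 and Ftl1-ps1 at 0.32 ± 1.32.

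A fit over both portions of these 7 mice, with each mouse as its own block, asked whether the class difference itself changed between portions. In this fit 6 of 26597 genes passed (0.0226%), and 771 (2.90%) had an unadjusted p under 0.05. A positive value means that pessimist over no bias class was higher in the anterior than in the posterior portion. Folr1, Kcne2 and Ttr are markers of the choroid plexus, the tissue that makes cerebrospinal fluid, where Folr1 carries folate and Ttr binds thyroid hormone. Folr1 was at 2.31, 150.4 and 7.41 CPM in the posterior portion of the 3 pessimists and at 0.0936, 23.7 and 1.85 CPM in the anterior. The 4 mice with no bias class had 9.18 to 242 CPM of Folr1 in the posterior portion and were listed at 0 in the anterior portion (adjusted p = 1.2e-05, edgeR). Ttr went from 109 to 20.7, from 13457 to 904 and from 1109 to 39.3 CPM in the pessimists, and in the other 4 mice from between 1273 and 13950 CPM to between 2.63 and 11.7 CPM (log2 fold change 4.59 ± 0.77, adjusted p = 0.029). The call for Ttr was lost in 7 of 13 alternatives, with an adjusted p of 0.29 by DESeq2 and of 1 in the robust edgeR fit. The highest anterior level of both genes was that of B6D2F1N pessimist 1. Without this mouse 1 gene passed, which was Folr1.

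Thbs4, an extracellular matrix thrombospondin, and Lbp, a binding protein of bacterial lipopolysaccharide, also had positive values. Unlike Folr1 and Ttr, Thbs4, Lbp and Kcne2 did not fall from posterior to anterior in every pessimist. In the posterior portion of the pessimists Thbs4 was at 11.8, 20.1 and 0 CPM and Lbp at 1.95, 42.3 and 0.443 CPM. Kcne2 was at 0.533, 45.1 and 6.75 CPM there. The mice with no bias class had 4.45 to 83.7, 4.12 to 70.2 and 6.58 to 68.5 CPM of these genes. Thbs4 was at 5.94 and 28.6 CPM in the anterior portion of 2 pessimists and at 0 in that of the third and of all 4 mice with no bias class (adjusted p = 0.00017). Lbp was at 1.97, 7.34 and 0 CPM and at 0 in the 4 others (adjusted p = 0.0032), and Kcne2 at 0.702, 4.24 and 1.803 CPM against 0 to 0.148 CPM (adjusted p = 0.0039). Dcn, the proteoglycan decorin, was the only gene of the 6 in the other direction. It was at 1410.5, 674 and 1083 CPM in the posterior portion of the pessimists and at 17.4, 11.4 and 20.9 CPM in the anterior, while the mice with no bias class went from 177 to 776 CPM down to 15.7 to 47.6 CPM (log2 fold change -2.22 ± 0.33, adjusted p = 0.0056). Apart from Dcn and Ttr the values rest on low levels, at or near 0 in the anterior portion of the mice with no bias class, so their fitted fold changes depend on the prior count and are no bound. No gene passed in a fit without the mouse block, which also left out a term for portion by strain. The calls thus depend on these parts of the design, and the 2 were not tested apart.

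**Figure D5:**
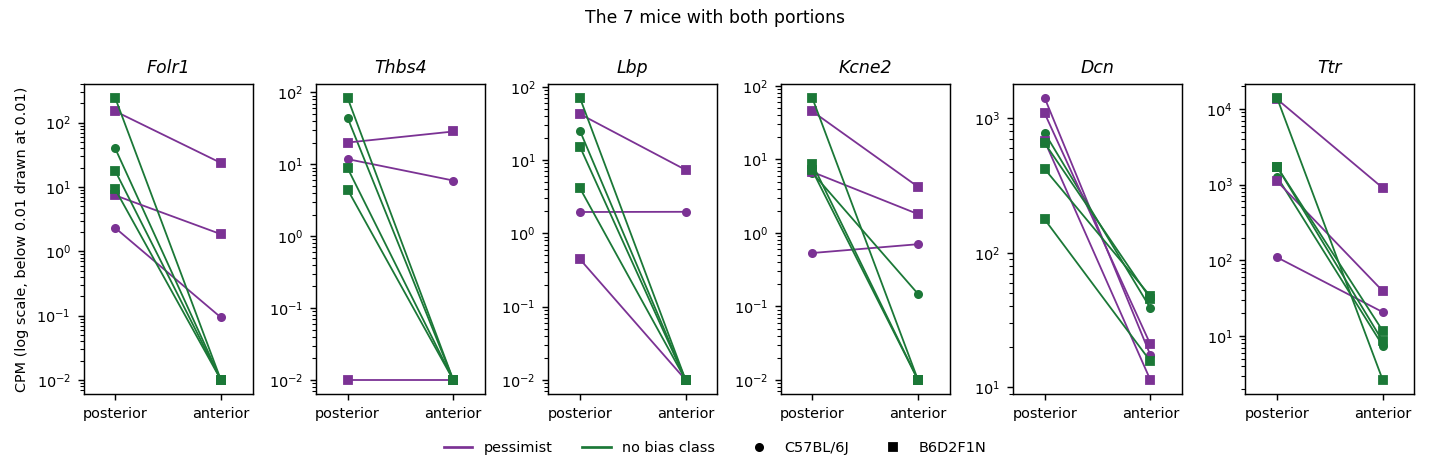
CPM (vertical axes, log scale, values below 0.01 drawn at 0.01) of the 6 genes whose class difference changed between portions, in the posterior and anterior libraries of the 7 mice with both, lines joining the libraries of a mouse (purple pessimist, green no bias class, circles C57BL/6J, squares B6D2F1N). For Folr1, Thbs4 and Lbp all 4 mice with no bias class drop to 0 in the anterior portion, while for Dcn the pessimist lines drop further.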

How the data were processed

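The authors made low-input poly-A libraries from laser-captured basolateral amygdala and read 72 bases of each fragment from 1 end. They trimmed reads with Trimmomatic 0.38, aligned them with HISAT2 2.1.0 to GRCm38 and counted them per gene with HTSeq 0.11.2; the annotation release and the strand setting are not given in the sources used here. The deposited values are these raw counts per gene for 52636 genes, 1 file per library. Rows for reads on no gene, ambiguous or not unique were left out of library sizes (13.7% to 26.4%, 3.26% to 3.71% and 7.37% to 10.9%). Names and positions came from GENCODE M21 for 52489 genes.

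Genes whose counts summed to 10 or more in a fit's libraries were tested with edgeR 4.0.16 (TMM scaling, quasi-likelihood F test, terms strain and class), with Benjamini-Hochberg adjustment and a threshold of 0.05, in R 4.3.3. The SE is the log2 fold change over the square root of F, and fold changes carry a prior count of 0.125. Further fits took strain by class, the 7 anterior libraries, and both portions with mouse as a block. DESeq2 1.42.0 was the other tool. The members and lists were chosen with earlier results of these data known. Named genes were, by rule, the 6 with the smallest p in each direction at a mean of at least 1 CPM, since none passed, up to 4 of smallest p in each list, and in the other fits the 2 of smallest p past the threshold in each direction. Ttr, Kcne2 and Lbp beyond these, the TEC, intronic, ribosomal and respiratory chain classes, and their members were chosen after values were seen. The text names only part of the list members that this rule allows, and 1 gene is not reported here. The scripts were tested on simulated data. Errors are the spread between mice, counting error included.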

Additional observations from a re-analysis of the deposited data

Results flagged for a closer look

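Of 72 groups of values compared for a sample far from the others, 6 had one, where chance alone gives about 1 in 20. Ftl1-ps1 was at 3.49 CPM in C57BL/6J unclassified mouse 2 and at 0.204 to 0.653 CPM in the other 5 mice with no bias class. Gm44676 was at 43.2 CPM in the same mouse and at 20.9 to 28.5 CPM in the others. Summed endothelial and pericyte markers were at 1747 CPM in B6D2F1N pessimist 2 (other pessimists 1012 to 1103 CPM) and at 1856 CPM in C57BL/6J unclassified mouse 1 (others 937 to 1255 CPM). Summed choroid plexus markers were at 14880.0 CPM in B6D2F1N pessimist 1 (others 127 to 1207 CPM) and at 15316 CPM in B6D2F1N unclassified mouse 1 (others 209.6 to 1890.5 CPM).

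The class difference changed between portions in 6 genes, by the interaction term of the fit over 7 mice. The fitted log2 difference was 11.1 for Folr1, 12.4 for Thbs4, 10.4 for Lbp, 7.39 for Kcne2, 4.59 for Ttr and -2.22 for Dcn. The first 4 values depend on the prior count, since these genes were listed at or near 0 in the anterior portion of the mice with no bias class.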

How the results depend on the processing

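The posterior comparison called 0 genes under all 21 alternatives except the one with at least 1 count in place of 10, which called 33 (15 higher, 18 lower). Strain by class called 2 with DESeq2 and 170 with at least 1 count, and the anterior comparison 2 and 35. Without each mouse in turn all 3 stayed at 0. Portion by class called 6, against 16 with DESeq2, 1 with filterByExpr, 17 with at least 1 count and 5 in the robust fit. It called 0 without the mouse block, in a fit that also left out portion by strain. Without each mouse in turn it called 1 to 14. The lowest count came without B6D2F1N pessimist 1, and the others were 3 without B6D2F1N pessimist 2 or unclassified mouse 1, 9 without B6D2F1N unclassified mouse 2, 11 without C57BL/6J pessimist 1, 13 without C57BL/6J unclassified mouse 1 and 14 without B6D2F1N unclassified mouse 4.

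Of 89 named genes, 14 reversed under at least 1 setting. With the share of reads on no gene as a term (added after seeing the data) the log2 fold change became -0.18 for Nptx2, -0.0648 for Nr4a3, 1.19 for Penk, -0.29 for Gabra5, -0.49 for Sstr2, -0.77 for Bdnf, -0.0846 for Atf4, 0.0233 for Xist, -1.12 for Neurod6, -0.44 for Slc17a7 and 0.58 for Rgs9. In B6D2F1N alone it was -0.0618 for Bdnf and -0.0266 for Mgll. In mice with both portions it was 0.27 for Penk, and over all 19 posterior libraries -0.11 for Hacl1. Without each mouse in turn Penk ran from -0.89 to 0.18, Crhbp from -0.0244 to 0.57 and Sstr2 from -0.0740 to 0.98. The cause was not tested. No paired analysis was possible because no mouse is in both classes, except between portions, where the mouse was the block. The median SE was 0.59 over all genes and 0.25 at 10 CPM or more.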

Other observations

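Genes of ribosomal proteins had higher fitted levels in pessimists. This class, like the others here, was chosen after the values of Rpsa and Rps15 had been seen, so it is a description and no test was made of it. All 81 ribosomal protein genes with a mean of at least 1 CPM had a positive log2 fold change, with a median of 0.54 and quartiles of 0.48 and 0.62, beside a median of 0.02 for all 16472 genes at that level. None passed the threshold, and 49 (60.5%) had an unadjusted p under 0.05, where 4.53% of all genes at that level did. The 33 genes of the small subunit ran from 0.33 to 0.79 and the 48 of the large subunit from 0.06 to 0.70. Their summed level was 6010.1 and 11362 CPM in the C57BL/6J pessimists and 8411 and 7346 CPM in the B6D2F1N pessimists. The mice with no bias class had 4172 and 6553 CPM in C57BL/6J and 5164 to 6758 CPM in B6D2F1N, so the first C57BL/6J pessimist lay inside the other class. The median was 0.68 within C57BL/6J and 0.44 within B6D2F1N, 0.34 without C57BL/6J pessimist 2, and 0.34 over all 19 posterior libraries of both housings. In the anterior portion it was 0.25.

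Ribosomal protein transcripts are known for a run of pyrimidines at their start that ties their translation to growth signals. The letters CTTTC were searched on the coding strand from 10 bases before to 15 bases after the RefSeq start (GRCm38.p6). They occurred in 15 of 71 matched ribosomal protein genes (21.1%) and in 1020 of all 32851 starts (3.10%). On the other strand they occurred in 2 of the 71 and in 3.00% of all starts. The 30 bases around the start are shown for the 4 holders with the smallest p to let a reader see the run, with CTTTC in capitals and the start at base 16.
Fau (chr19:6057932-6057961, plus strand): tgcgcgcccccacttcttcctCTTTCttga
Rplp2 (chr7:141447636-141447665, plus strand): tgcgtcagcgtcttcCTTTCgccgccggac
Rpl18 (chr7:45718056-45718085, plus strand): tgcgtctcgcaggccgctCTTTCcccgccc
Rpl7a (chr2:26910792-26910821, plus strand): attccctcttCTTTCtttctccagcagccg
The log2 fold changes of these 4 genes were 0.67, 0.66, 0.49 and 0.51. The match describes letters only.

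Subunits of the respiratory chain and the ATP synthase that the nucleus encodes had the same form. Of 83 genes, 82 were positive, with a median of 0.48, and 30 (36.1%) had an unadjusted p under 0.05, where 51.7% of all 16472 genes were positive and 4.53% had such a p. The 38 genes of complex I had a median of 0.49, the 4 of complex II 0.23, the 8 of complex III 0.49, the 16 of complex IV 0.54 and the 17 of the ATP synthase 0.41. Ndufb9 of complex I was at 345, 644, 370.1 and 284 CPM in pessimists and had a log2 fold change of 0.73 ± 0.25. Summed levels were 13971, 22246, 15938 and 15814 CPM in pessimists and 9129 to 14657 CPM in the mice with no bias class. The median was 0.29 without C57BL/6J pessimist 2, 0.28 over all 19 posterior libraries and 0.10 in the anterior portion.

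Fold changes also followed transcript length. Over 5 equal groups of coding genes by exon length, the median log2 fold change was 0.22 in the shortest (317 to 2588 bases), 0.08, 0.04 and -0.02 in the next, and -0.09 in the longest (7815 bases or more). In the shortest group it was 0.21 once ribosomal protein and respiratory chain genes were left out, and 0.06 in the anterior portion. The part of length, reads on no gene, reads aligned to more than 1 place and mitochondrial counts in these gene classes was not tested, with 1 exception. In the fit with the share of reads on no gene as a term, the ribosomal protein median was 0.60 and that of the respiratory chain 0.50.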
